A study of Mus musculus with 8 samples.

Results

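Amino acid and integrated stress genes were followed in mouse hemogenic endothelium without and with induction of Runx1. The set holds 40 genes, taken by symbol from a list of transcription factors of the integrated stress response, their effectors, secreted factors, enzymes of amino acid and folate metabolism, and amino acid transporters. The rule itself uses no measured value. Of the 40 genes, 39 had at least 1 probe that a RefSeq accession named, 37 gave enough signal to be tested, and the test ran over 14503 genes in all out of 20145 named genes on the array. Pycr1, the last enzyme of proline synthesis, had no named probe here. Fgf21, a secreted hormone of starvation, failed the well-above-background flag on each of the 6 arrays compared. Slc7a11, the cystine importer, passed that flag on 1 array of each group and was not tested.

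The cells were mouse embryonic stem cells, strain C57BL/6 per the labels, that carry Runx1 under a doxycycline-dependent (Tet-on) switch and are named iRUNX1. Embryoid bodies were taken apart after 3.25 days, cells bearing Flk-1 were sorted and cultured, and re-sorted for Flk-1, and the hemogenic endothelium, which is endothelium able to give rise to blood, was cultured for 2 more days. The induced group received doxycycline overnight at 0.3 µl/ml, the unit that the labels give, and the uninduced group, labelled control, received none. Each group had 3 biological replicates, which the labels call independent, and 1 further array titled as a technical repeat. Both groups came from the same engineered cells, and the labels do not say whether the cells' own Runx1 is intact or how many clones were used. A control with doxycycline but no inducible gene was not analysed here, so effects of Runx1 and of doxycycline cannot be told apart, and every difference below is between cells with and without doxycycline.

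The integrated stress response begins when a kinase such as GCN2 or PERK phosphorylates the translation factor eIF2alpha, which lowers protein synthesis in general and raises translation of the transcription factor ATF4. ATF4, with partners of the bZIP family, then induces enzymes that make asparagine, serine, glycine and proline, transporters that import amino acids, and feedback factors that end the response. Because ATF4 is controlled largely through translation and stability, its mRNA can stay level while its targets move. In developing blood, these pathways supply nucleotides and protein to dividing progenitors.

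ATF4 binds with C/EBP proteins at a composite element, the CARE, whose letters TGATGNAA were searched on both strands of the RefSeq promoter windows of GRCm38.p6, from 250 bases before to 50 bases after each transcription start. Windows were present for 33 of the 40 genes, and 11 of them, or 33.3%, held the letters. Over all 27025 genes with a window the share was 4.51%, and over the 11509 of these that were tested it was 2.93%. The genes with a match were Asns, Chac1, Fgf21, Herpud1, Nupr1, Pycr1, Slc1a4, Slc7a11, Slc7a7, Trib3 and Vldlr. A match of letters describes the window and does not show binding. Upstream matches of 6 tested genes are shown, and Vldlr, which had the largest change of the set, is among them. The part of a match in any change was not tested. Capitals mark the CARE letters, and TTGCATCA is the element read from the opposite strand. Positions count from the transcription start, with negative numbers upstream.
Vldlr, chr19:27216800-27216847, plus strand, match from position -200: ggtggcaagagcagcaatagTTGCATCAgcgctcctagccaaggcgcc
Asns, chr6:7693210-7693252, minus strand, match from position -23: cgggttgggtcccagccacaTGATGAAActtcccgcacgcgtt
Chac1, chr2:119351029-119351076, plus strand, match from position -193: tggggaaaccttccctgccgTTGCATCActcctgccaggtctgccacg
Herpud1, chr8:94386297-94386344, plus strand, match from position -112: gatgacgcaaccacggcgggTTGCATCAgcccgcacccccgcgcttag
Nupr1, chr7:126625553-126625600, minus strand, match from position -110: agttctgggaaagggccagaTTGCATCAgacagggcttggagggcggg
Slc7a7, chr14:54418058-54418105, minus strand, match from position -141: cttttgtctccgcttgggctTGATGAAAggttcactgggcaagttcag

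At the matches shown, Vldlr, Chac1, Herpud1 and Nupr1 share the same 8 capital letters, while Asns and Slc7a7 carry TGATGAAA on the strand of the gene. Slc7a7 also held TGATGCAA, which is TTGCATCA read from the opposite strand. This further match was a single site in overlapping windows, at position -243 in another of its windows and at position -1 in the window shown. Slc7a7 thus carries both forms. Of the 8 tested genes with a CARE match, 1 rose on induction and 0 fell, with a median log2 change of -0.03 and 4 above 0. The 22 tested genes with a window but no match had a median of 0.31, with 1 that rose, 0 that fell and 16 above 0. Over all genes tested the median was 0.09 and 59.0% were above 0. The ER stress response element was in 0 of the 33 genes with a window and in 0.137% of all genes. The RUNX letters TGTGGT were in 3 of the 33, or 9.09%, namely Shmt2, Slc3a2 and Slc6a9, and in 18.9% of all genes. None of these 3 passed the test, with log2 changes of 0.36 for Shmt2, 0.47 for Slc3a2 and -0.05 for Slc6a9. No gene of the set held letters of more than 1 of the 3 motifs, so none of the matches overlapped another motif.

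Signals are given as log2 of the processed spot intensity minus the 75th percentile of the array, so a value of 0 equals that percentile. A probe's signal also depends on its sequence, so "brightest" marks only the gene picked for description by its mean signal and ranks no expression levels. The 75th percentile lay between 337.9 and 699.4 on the uninduced and between 542.8 and 973.4 on the induced replicate arrays, and 55.55% to 70.36% of spots were well above background on the 8 arrays, with 0 saturated spots. The brightest Runx1 probe read -4.71, -4.72 and -4.28 on uninduced and -6.14, -5.71 and -4.95 on induced arrays. Each induced array was below each uninduced one, but only 2 of the 3 induced arrays were well above background, so the size of this difference was in part not measured. The sources used here do not say whether the inducible copy carries the probe's sequence, so the probe does not check the labels. In a value table that the authors deposited beside the scanner files, 6 of the 8 columns followed the scanner signals of an array other than the one they are headed for, 4 of them an array of the other group. Groups here follow the labels of the scanner files, and counts from the table are given with the other settings. Measured against spike-in RNA, the 75th percentile of replicates 1, 2 and 3 exceeded its uninduced partner by 1.17, 0.80 and 1.91 after induction, and that of the technical repeat by 0.14. Spike-in scaling therefore moved the median change of all genes from 0.09 to 1.38 and median centring moved it to 0.25, and every change below is relative to the 75th percentile unless another scale is named.

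Endothelial markers were present, with 8 of 8 well above background on all arrays of both groups, and the mean log2 signal of the list ran from 2.19 to 3.47 on uninduced and from 0.89 to 2.56 on induced arrays. Of these 8 markers, 2 fell, Tek and Eng. Of 9 blood cell markers 4 were called higher, Spn, Myb, Gfi1 and Ikzf1. Myb passed the background flag on 2 uninduced arrays and Ikzf1 on only 1. Ptprc, Itga2b, Gfi1b, Kit and Spi1 were not called, Ptprc with a change of -0.19 (adjusted p = 0.562, limma). The mean of the 9 ran from -3.61 to -2.45 without and from -1.26 to 0.22 with induction, with Spi1 failing the background flag on each uninduced array. Of 6 mast cell markers 4 were tested and 3 were called higher, Mcpt8, Mcpt4 and Gzmb. Gzmb failed the background flag on all 3 uninduced arrays, and Mcpt8 and Mcpt4 each passed it on only 1 of them. The list's mean ran from -5.53 to -4.63 without and from -1.50 to -1.14 with induction. Because 3 of the 6 markers failed the flag on each uninduced array, the uninduced mean rests in part on levels that were not measured. Fcer1a failed it on all 6 arrays and Cpa3 passed it on only 1 induced array, so neither was tested. Kit was tested but not called, with a change of 0.57 (adjusted p = 0.678, limma). Smooth muscle markers, with Acta2 and Tagln bright, had 0 calls among 5 tested. The part of these cell types in the changes below was not tested, and in bulk RNA more cells of a type and more RNA per cell cannot be told apart.

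Most of the amino acid and stress genes did not pass the test, and those that did were a lipoprotein receptor, a folate enzyme and an amino acid transporter. Vldlr, Mthfd1l and Slc7a5 rose, 0 genes fell and 34 did not pass (limma, Benjamini-Hochberg adjusted p under 0.05 over 14503 genes). That is 8.11% of the 37 called, against 6.31% of all genes tested, of which 4.14% rose and 2.17% fell. With the replicate number as a block, 6 of the 37 were called higher and 2 lower, or 21.6%, against 16.2% of all genes, of which 9.37% rose and 6.81% fell. The block added Phgdh, Gdf15 and Stc2 to those that rose, and Eif4ebp1 and Aldh1l2 were the 2 called lower, Aldh1l2 with only 1 induced array well above background. The median log2 change of the 37 was 0.07 against 0.09 over all genes, 26 of them lay within 0.5 of 0, and 3 had a change of at least 1 either way, Vldlr, Gdf15 and Aldh1l2. At an unadjusted p under 0.05, 10 were higher and 2 lower, against 13.9% and 7.77% of all genes. All 3 induced arrays lay above all 3 uninduced ones for 11 genes and below them for 3, where 19.6% and 8.71% of all genes did so. Of the 37, 22 were above 0, or 59.5%, against 59.0% of all genes. Quantile normalization put 20 of the 37 above 0, median centring 28, and scaling to the spike-ins 36, so the sign of a small change rests on the scale.

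**Figure D1:**
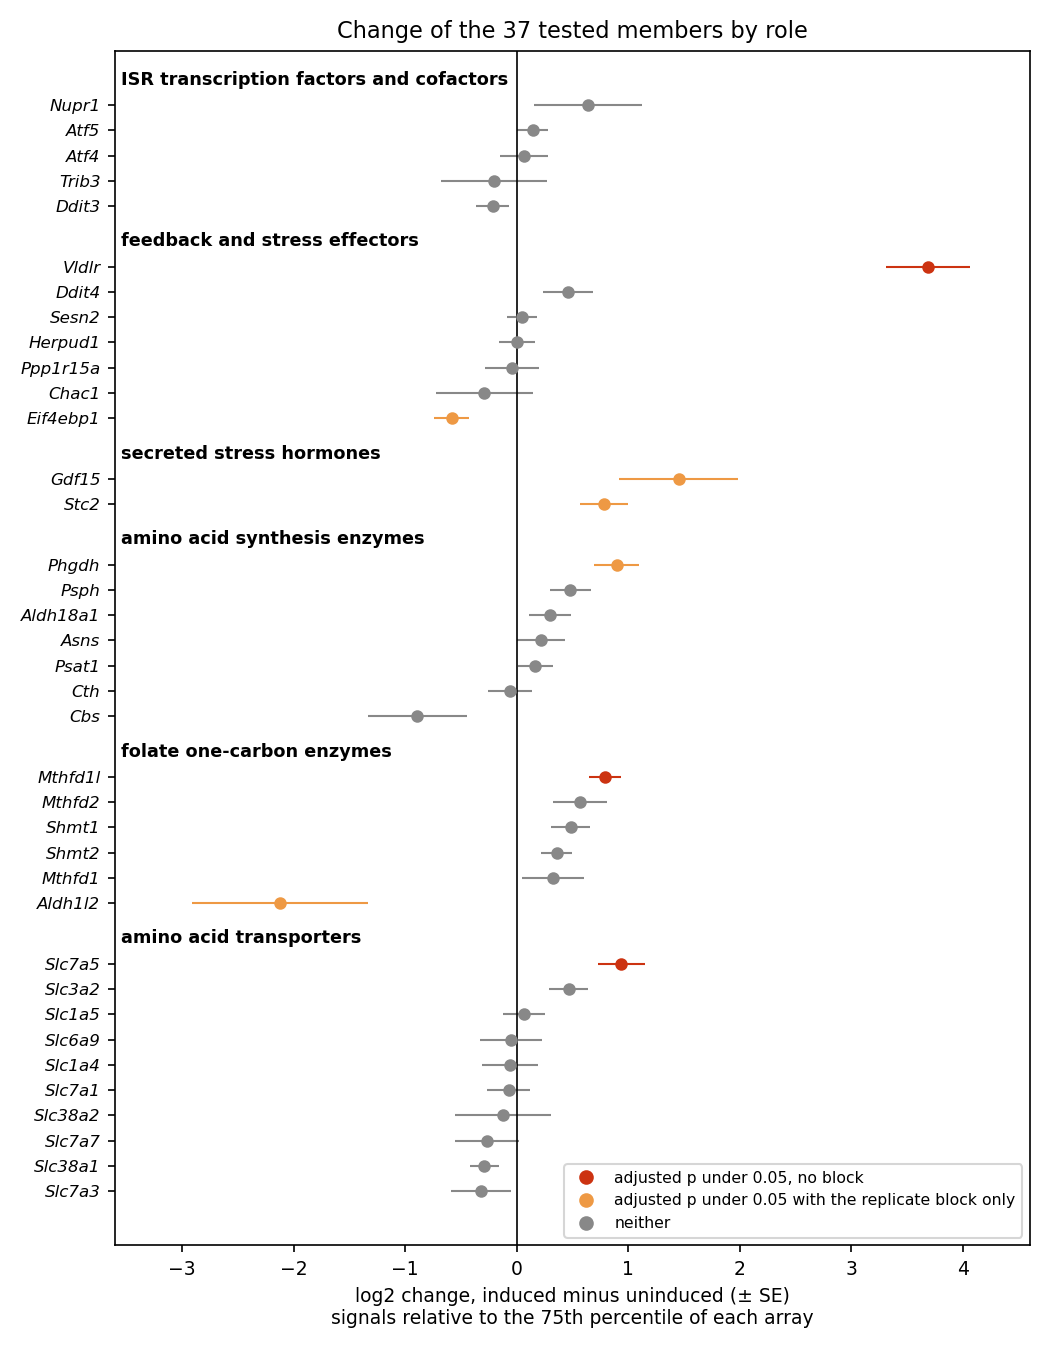
Log2 change with its standard error for the 37 tested genes, induced minus uninduced, n = 3 arrays a group, ordered within each role, with colours for the genes past the threshold without and with the replicate block. Vldlr at 3.69 and Aldh1l2 at -2.12 are the ends of the range, and 26 genes lie within 0.5 of 0. With spike-in scaling all but Aldh1l2 lie above 0.

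The transcription factors and cofactors of the response did not pass the test in either direction, 0 of 5 with or without the block. Atf4, the central transcription factor, read 5.19, 5.72 and 5.80 on uninduced replicates 1, 2 and 3, while the induced replicates read 5.38, 5.70 and 5.82. The groups overlapped, and in each group replicate 1 was the lowest. The change was 0.07 (SE 0.22, adjusted p = 0.879, limma), with a 95% interval of -0.45 to 0.58, or -0.24 to 0.37 with the block. Ddit3, which encodes CHOP, a factor of prolonged stress, was lower in all 3 pairs, with a change of -0.22 and an interval of -0.57 to 0.14. Trib3, a pseudokinase that dampens ATF4, had a change of -0.20 and was also lower in all 3 pairs. Atf5, a close relative of ATF4, and Nupr1, a small stress-induced nuclear protein, were higher in all 3 pairs, but their intervals reached below 0 without the block. For Atf5 the value was 0.14 with an interval of -0.19 to 0.48. Nupr1 had a value of 0.64 with an interval of -0.52 to 1.80, and the adjusted p with the block was 0.124. Ddit3 and Trib3 were above 0, at 1.08 and 1.09, with spike-in scaling.

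Among the 7 feedback and stress effectors, the rise of 1 passed without the block, and with it also the fall of another. Vldlr, a receptor for lipoproteins and reelin that ATF4 is known to induce, read -2.56, -2.83 and -2.42 on uninduced and 0.29, 1.16 and 1.81 on induced arrays. All induced arrays were above all uninduced ones, and the gap between the groups was wider than the spread within either. The group means were -2.60 ± 0.21 uninduced and 1.08 ± 0.76 induced (SD, n = 3), a 12.9-fold rise with a log2 change of 3.69 (SE 0.37, adjusted p = 0.00382, limma). It kept an adjusted p of 0.00403 to 0.0261 when any 1 of the 6 arrays was left out. The other kept probe of Vldlr failed the background flag on all 3 uninduced arrays and so gives no measured change. With normexp correction the change of Vldlr was 2.88.

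Eif4ebp1, which encodes the translation repressor 4E-BP1, was the brightest of this group and read 6.06, 5.85 and 6.00 on uninduced and 5.57, 5.21 and 5.39 on induced arrays. The groups did not overlap, and the induced array was lower in all 3 pairs. The change was -0.58 (SE 0.16, adjusted p = 0.0885, limma) and passed with the block (adjusted p = 0.0315), while with spike-in scaling its sign turned to 0.71. Ddit4, an inhibitor of TORC1 also called REDD1, was higher in all 3 pairs, by 0.38, 0.63 and 0.37, but its adjusted p was 0.292, or 0.0683 with the block. Chac1, a glutathione-degrading enzyme, was lower in all 3 pairs at -0.29, with an interval of -1.33 to 0.75. Ppp1r15a, whose product GADD34 restores eIF2alpha, had a change of -0.04. Its interval was -0.62 to 0.54. Sesn2, a leucine sensor upstream of TORC1, had an interval of -0.27 to 0.37, and Herpud1, an ER protein degradation factor, one of -0.38 to 0.39.

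Both secreted factors that could be tested were higher in every pair, but passed only with the block. Gdf15, a circulating stress cytokine, read 1.30, 1.20 and -0.27 on uninduced and 2.71, 2.53 and 1.34 on induced arrays. Replicate 3 was the lowest in each group, and its induced array was only just above the highest uninduced one, so the groups did not overlap but came close. The pair differences were alike, 1.42, 1.33 and 1.61, and the mean change of 1.45, or 2.74-fold, had an SE of 0.53 and an adjusted p of 0.183 without the block (limma). The 95% interval was 0.18 to 2.72 without the block. With it, the interval was 1.13 to 1.77 and the adjusted p was 0.00347. Without uninduced replicate 3 the change of Gdf15 was 0.95, and when scaled to the spike-ins it was 2.74 and passed without the block (adjusted p = 0.014, limma). Stc2, a stanniocalcin glycoprotein, read -2.71, -2.05 and -2.57 on uninduced and -1.85, -1.47 and -1.66 on induced arrays. The groups did not overlap, and the change of 0.78 (SE 0.22) had an adjusted p of 0.0949, or 0.0193 with the block (limma). With normexp background correction the change of Stc2 was 0.41.

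Of 8 enzymes that make amino acids, 7 were tested and 0 passed without the block, with a median of 0.22. The 2 highest changes were those of Phgdh and Psph, both of serine synthesis. Phgdh, which opens serine synthesis from glycolysis, read 2.71, 3.01 and 3.31 on uninduced and 3.86, 4.13 and 3.73 on induced arrays. Each induced array was above each uninduced one. The change was 0.90, or 1.86-fold (SE 0.20), with an adjusted p of 0.0538 that became 0.0359 with the block (limma). With normexp correction it passed without the block (adjusted p = 0.0336, limma). Its other probe gave 0.90. Psph, the last step of that branch, was higher in all 3 pairs, with a mean of 0.48 and an adjusted p of 0.195, or 0.0538 with the block. Its other probe gave 0.15 and was lower in pair 3. Psat1, the step between them, had a change of 0.17, and its dimmer probe one of -0.37. Asns, asparagine synthetase and a classic ATF4 target, read 3.80, 4.31 and 4.04 on uninduced and 3.96, 4.57 and 4.27 on induced arrays. The induced array was higher in every pair, but the groups overlapped and the change of 0.22 (SE 0.22) did not pass (adjusted p = 0.584, limma). Cbs, which makes cystathionine from homocysteine and serine, had a change of -0.89 with an interval of -1.95 to 0.17. Cth, the next enzyme of that path, had one of -0.06, and Aldh18a1, which starts proline synthesis, one of 0.30.

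The folate enzymes, which carry one-carbon units for purines, thymidylate and methylation, included 1 that rose of 6, and 5 of the 6 were higher in all 3 pairs. Across all genes, 37.8% were higher in all 3 pairs and 21.8% lower. Mthfd1l, the mitochondrial enzyme that releases formate, read 2.59, 2.34 and 2.33 on uninduced and 3.17, 3.29 and 3.17 on induced arrays. The 2 groups stood apart with little spread within either. It rose by 0.79, or 1.73-fold (SE 0.15, adjusted p = 0.0269, limma), and its other probe by 0.72 (adjusted p = 0.0422 in a fit over probes). The call was lost when any array but uninduced replicate 1 was left out, with adjusted p of 0.0325 to 0.131 over the 6 omissions, while the change stayed between 0.75 and 0.88. It was also lost with spike-in scaling (adjusted p = 0.108) and with no filter on dim probes (adjusted p = 0.0684, limma).

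Mthfd1, the cytosolic counterpart and the brightest of the group, read 4.04, 3.32 and 3.34 on uninduced and 4.33, 3.72 and 3.64 on induced arrays. Each induced array exceeded its own uninduced partner, but replicate 1 stood above the others in both groups, so the groups overlapped. Its change of 0.33 had an adjusted p of 0.516 (limma). Mthfd2, the mitochondrial dehydrogenase upstream of MTHFD1L, differed by 1.03, 0.38 and 0.30 in pairs 1, 2 and 3, and its adjusted p was 0.236. Shmt1 and Shmt2, the cytosolic and mitochondrial enzymes that turn serine into glycine, had changes of 0.48 and 0.36 with intervals of 0.07 to 0.90 and 0.03 to 0.69. Neither passed, with adjusted p of 0.177 and 0.201, or 0.0683 and 0.113 with the block (limma). The dimmer Shmt1 probe went the other way, at -0.20.

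Aldh1l2, the mitochondrial enzyme that oxidises formyl-folate, was the 1 folate gene lower in all 3 pairs. It read -1.78, -4.49 and -4.48 on uninduced and -4.85, -6.33 and -5.93 on induced arrays. The groups did not overlap, uninduced replicate 1 stood well above the other arrays, and only 1 of the 3 induced arrays was well above background. The change of -2.12 (SE 0.79) had an adjusted p of 0.189, or 0.0156 with the block (limma). Because 2 of the 3 induced signals failed the background flag, the size of this change and its p rest in part on levels that were not measured. Without uninduced replicate 1 the change was -1.22. It was -1.16 with normexp correction and -0.83 when scaled to the spike-ins.

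Of 11 amino acid transporters, 10 were tested, 1 rose and 0 fell, and the median was -0.06. Slc7a5, the light chain of the large neutral amino acid exchanger LAT1, read 0.37, 0.87 and 0.87 on uninduced and 1.54, 1.48 and 1.91 on induced arrays. The groups did not overlap. The change was 0.94, or 1.92-fold (SE 0.21, adjusted p = 0.0497, limma), and 0.0193 was the adjusted p with the block. Its call lay at the threshold and was lost with any 1 of the 6 arrays left out (adjusted p = 0.0788 to 0.146), and its other probe, also well above background on all 6 arrays, gave -0.09 (adjusted p = 0.819 in a fit over probes). It was lost too with spike-in scaling (adjusted p = 0.0761, limma) and under 8 other settings of the processing.

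Slc3a2, the heavy chain 4F2hc that pairs with SLC7A5, read 4.32, 4.44 and 4.50 on uninduced and 5.14, 4.64 and 4.88 on induced arrays. Its groups did not overlap either, but the change of 0.47 (SE 0.17) did not pass (adjusted p = 0.187, or 0.113 with the block, limma). Slc38a1, a sodium-coupled glutamine importer and the brightest transporter, read 5.02, 5.12 and 5.08 on uninduced and 4.78, 4.74 and 4.83 on induced arrays. All induced arrays were below all uninduced ones, and the change of -0.29 (SE 0.13) did not pass (adjusted p = 0.253, limma). Its 3 probes all pointed down, but scaled to the spike-ins the brightest was above 0, at 1.00. The other 7 tested transporters overlapped between groups. They were the arginine carriers Slc7a1 and Slc7a3 at -0.07 and -0.32, Slc7a7 at -0.27, the neutral amino acid exchangers Slc1a4 and Slc1a5 at -0.06 and 0.07, the glycine importer Slc6a9 at -0.05 and Slc38a2 at -0.12. The untested Slc7a11 read -5.01, -7.65 and -6.84 on uninduced and -4.25, -7.02 and -6.43 on induced arrays, with replicate 1 the highest in both groups.

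**Figure D2:**
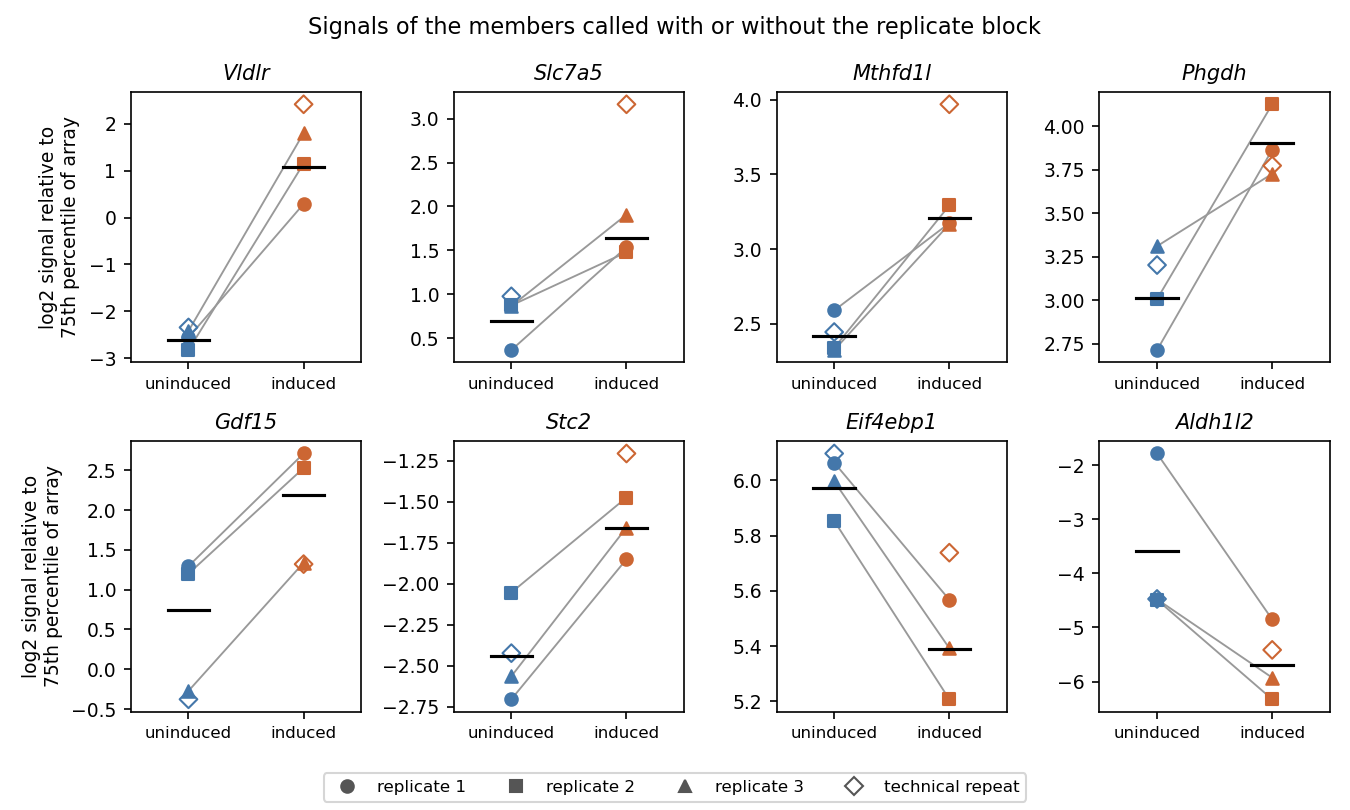
Log2 signal relative to the 75th percentile of each array for the 8 genes past the threshold with or without the replicate block, with replicates joined by lines, group means as bars and technical repeat arrays as open diamonds, each panel on its own axis. The induced array is higher in all 3 pairs for Vldlr, Slc7a5, Mthfd1l, Phgdh, Gdf15 and Stc2 and lower in all 3 for Eif4ebp1 and Aldh1l2, though Eif4ebp1 turns to 0.71 with spike-in scaling.

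Several genes of the response differed more between replicate numbers than between groups. For each gene the sum of squares over the 6 arrays was split into a share between groups and a share between replicate numbers. There are more replicate numbers than groups, so the number's share tends to be the larger even where neither has an effect. The number took 96.1% for Trib3, 94.2% for Atf4, 92.2% for Slc38a2, 90.5% for Chac1 and 81.1% for Asns. Trib3 read -0.66, 0.21 and 0.72 on uninduced and -0.96, 0.18 and 0.44 on induced arrays. Chac1 read -2.37, -1.69 and -0.84 on uninduced and -2.44, -1.95 and -1.37 on induced arrays. For Atf4, Asns, Trib3 and Chac1 alike, replicate 1 was the lowest array in both groups. Slc38a2, a glutamine carrier induced on amino acid starvation, went the other way, with 5.37, 4.00 and 4.02 on uninduced and 4.88, 3.96 and 4.18 on induced arrays, so that replicate 1 was the highest in both. At the other end, the groups took 94.6% for Mthfd1l, 94.3% for Vldlr and 93.2% for Slc38a1.

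Over the 37 genes the median share was 39.8% between groups and 45.3% between numbers, against 30.8% and 43.7% over all genes. The number's share was the larger in 20 of the 37, or 54.1%, against 57.7% of all genes. The same replicate number was highest in both groups for 25 of the 37 and lowest in both for 20. Those counts were not taken over all genes, so they show no trait particular to the set. The labels do not say what arrays of the same number share.

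**Figure D3:**
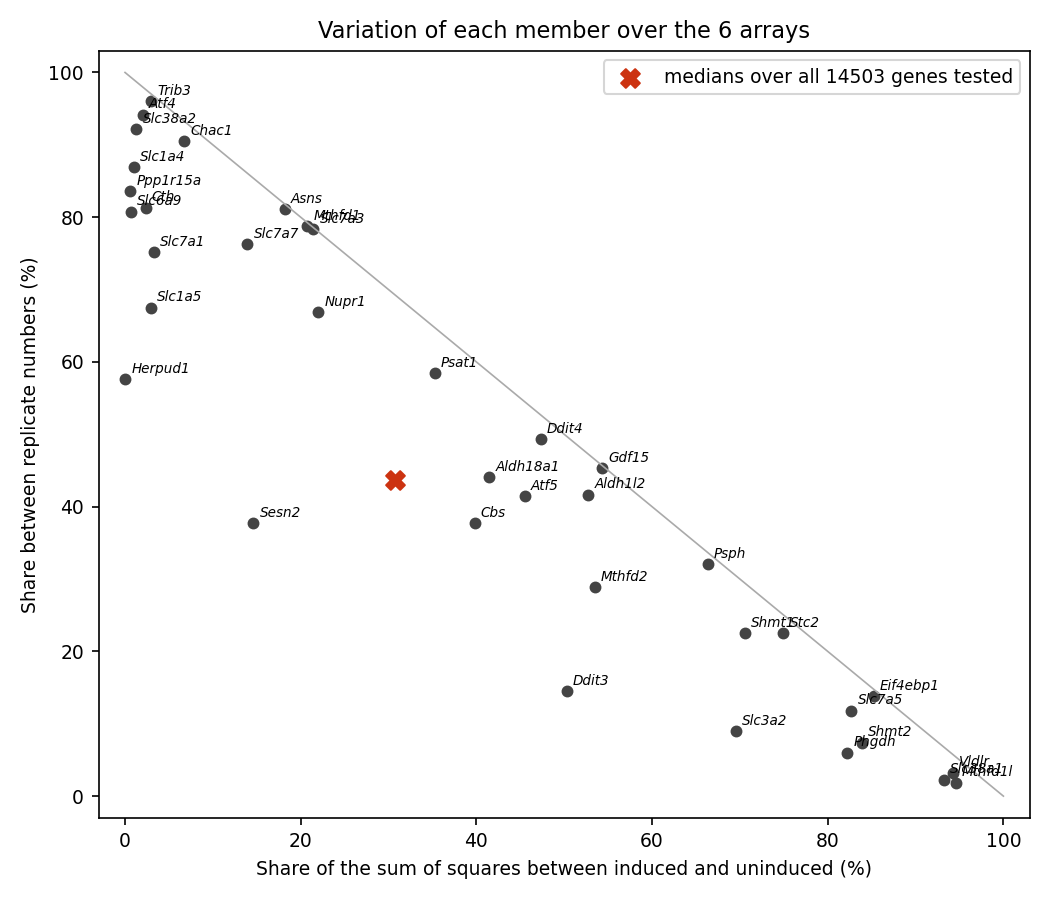
Share of each gene's sum of squares over the 6 arrays that lies between groups, on the horizontal axis, and between replicate numbers, on the vertical axis, both in percent, with the medians over all 14503 genes as a cross. Trib3, Atf4, Slc38a2 and Chac1 sit at the upper left and Mthfd1l, Vldlr and Slc38a1 at the lower right.

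Different probes of a gene did not always point the same way. More than 1 probe was kept for 12 of the 37 tested genes, and 7 of the 12 had probes on opposite sides of 0, namely Atf4, Cth, Psat1, Shmt1, Slc1a5, Slc6a9 and Slc7a5. The widest gap was 1.03, for Slc7a5. For Atf4 the bright probe gave 0.07 and the dim one -0.51 (adjusted p = 0.361, limma over probes). Those of Mthfd1l and Phgdh pointed the same way, and for Phgdh they differed by only 0.0049 in log2 change. Which transcript each probe reads was not used here.

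**Figure D4:**
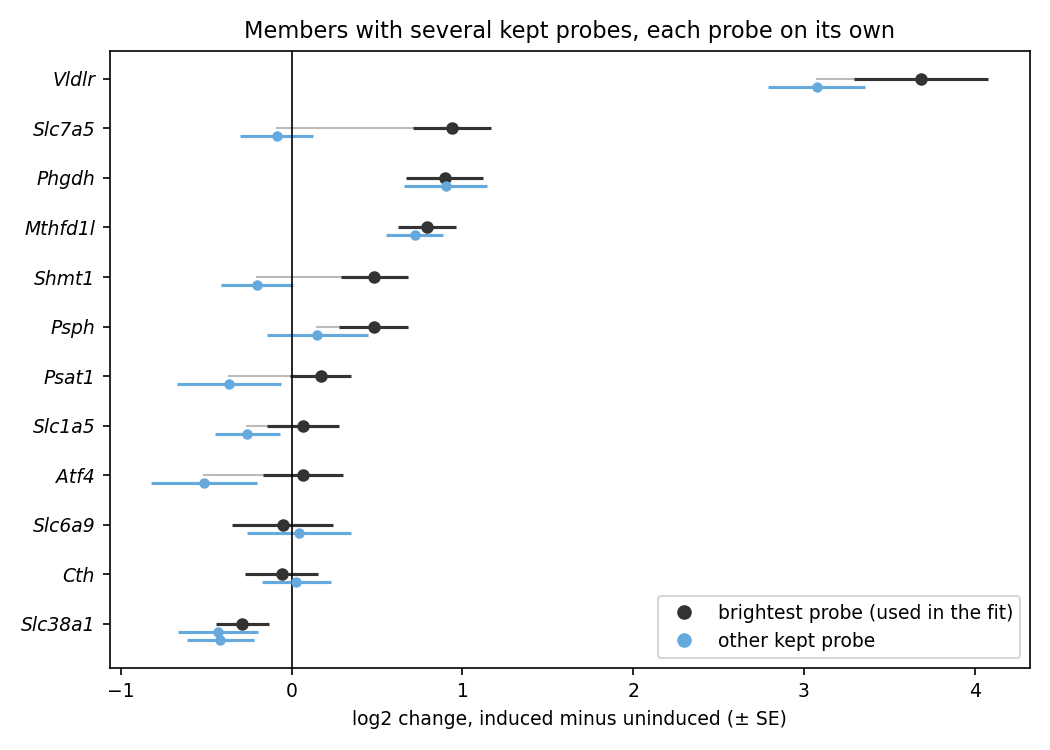
Log2 change with its standard error, induced minus uninduced, for each kept probe of the 12 genes with several, with the brightest probe in black and the others in blue. The probes lie close together for Phgdh and Mthfd1l, while those of Slc7a5 are 1.03 apart. The blue probe of Vldlr failed the background flag on all 3 uninduced arrays, so its place is not a measured change.

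The neighbouring branches of the pathway were read from 10 further lists with 162 genes, of which 155 were tested. Of these 8 were called higher and 2 lower, or 6.45%, near the 6.31% of all genes, and the median change was 0.15. With the block 21 were called higher and 5 lower, or 16.8% against 16.2%. Calls among the bZIP partners of ATF4, the glutathione genes and the TORC1 genes are described in turn, and 6 lists held 0 genes that passed without the block.

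Of 13 bZIP partners, 4 were called higher and 1 lower, and 2 of the 4 had no measured uninduced level. Cebpb, a partner of ATF4 at CARE elements, read 3.15, 3.22 and 3.50 on uninduced and 4.33, 4.59 and 4.95 on induced arrays. The groups did not overlap, and it rose by 1.33, or 2.52-fold (SE 0.21, adjusted p = 0.0149, limma). The call was lost without uninduced replicate 2 and without induced replicate 2, where the adjusted p reached at most 0.0726. Atf3, a repressor that stress induces, read 2.51, 2.50 and 2.49 on uninduced and 1.42, 1.08 and 0.58 on induced arrays. It fell by 1.47 on the log2 scale (SE 0.23, adjusted p = 0.0149, limma), lost its call without either replicate 2 array or uninduced replicate 3 (adjusted p up to 0.0689), and was at -0.18 with spike-in scaling. Nfe2l2, which encodes the antioxidant regulator NRF2, rose by 0.85 (SE 0.18, adjusted p = 0.0459, limma), and lost its call when any array but uninduced replicate 1 was left out (adjusted p up to 0.169) and with spike-in scaling (adjusted p = 0.0932). Cebpe, a granulocyte factor, and Batf, a factor of lymphoid and myeloid cells, failed the background flag on all 3 uninduced arrays, so they entered the test through the induced group alone. Against the dimmest signal well above background, Cebpe was at least 6.996-fold higher in the induced group (adjusted p = 0.00639, limma) and Batf at least 2.65-fold higher (adjusted p = 0.00639, limma). These p-values belong to fitted signals that were not measured in the uninduced group, not to the bounds. With normexp correction their changes were 0.89 and 0.20 and did not pass. With the block alone Jdp2, a bZIP repressor, rose, with a change of 0.75 (adjusted p = 0.0332). Batf3 fell with the block, with a change of -0.69 (adjusted p = 0.0409, limma), but was at 0.60 with spike-in scaling. Cebpa passed with the block at 0.86 (adjusted p = 0.0461, limma), with 1 uninduced array well above background and a change of -0.13 with normexp correction. Cebpd, the brightest of the list, had a change of -0.26.

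Among 11 tested glutathione and NRF2 target genes 3 were called higher, 1 of them with no measured uninduced level. Srxn1, a sulfiredoxin, read 3.79, 3.29 and 3.61 on uninduced and 4.80, 4.52 and 4.52 on induced arrays, a rise of 1.05 (SE 0.18, adjusted p = 0.0234, limma). Gclc, the rate-limiting enzyme of glutathione synthesis, read 3.12, 2.97 and 2.77 on uninduced and 4.17, 3.77 and 3.75 on induced arrays, a rise of 0.94 (SE 0.18, adjusted p = 0.0314, limma). In both genes the groups stood apart, but both lost the call when any array but uninduced replicate 1 was left out, with adjusted p up to 0.089 for Srxn1 and 0.124 for Gclc. Scaled to the spike-ins, Srxn1 had an adjusted p of 0.0566 and Gclc one of 0.0757 (limma). Ggt5, a gamma-glutamyl transferase that failed the background flag on all 3 uninduced arrays, was at least 2.94-fold higher (adjusted p = 0.00637 for the fitted signals, limma), but its change was 0.27 with normexp correction and did not pass. Txnrd1, the brightest of the list, had a change of 0.06.

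The 20 other serine, folate, proline and glutamine enzymes had a median change of 0.17, with 11 above 0, or 55%, against 59.0% of all genes. With the block, Aldh1l1 rose by 0.83 (adjusted p = 0.0303, limma) and Sfxn1 by 0.59 (adjusted p = 0.0426, limma). Mat2a, which makes S-adenosylmethionine and was the brightest, had a change of 0.23. Among 18 TORC1 and amino acid sensing genes, Tsc1, an inhibitor of TORC1, rose by 0.72 (SE 0.16, adjusted p = 0.0461, limma), and lost its call with any 1 of the 6 arrays left out (adjusted p = 0.0521 to 0.175) and with spike-in scaling (adjusted p = 0.127). With the block Sesn1, a stress-induced inhibitor of TORC1, rose by 0.66 (adjusted p = 0.0382, limma). Deptor, an inhibitor of TORC1, rose with the block by 0.86 (adjusted p = 0.0262, limma), but was at 0.12 with normexp correction. Rragd, a Rag GTPase that recruits TORC1 to lysosomes, fell with the block, with a change of -1.42 (adjusted p = 0.0033, limma) that was -0.13 with spike-in scaling. Lamtor1, the brightest, had a change of 0.06.

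Without the block, 0 genes passed among 20 cytosolic aminoacyl-tRNA synthetases, 15 kinases, subunits and regulators of eIF2, 20 ER unfolded protein response genes, 9 mitochondrial unfolded protein response genes, 15 autophagy genes and 14 other amino acid transporters. At an unadjusted p under 0.05 these lists held 12 higher and 2 lower of 93 genes, where 13.9% and 7.77% of all genes were so. Their medians were 0.23, 0.19, -0.05, 0.25, -0.06 and 0.18 in that order. Many synthetase genes are known ATF4 targets, and a part of ATF4 in their changes was not tested. Of the 20, 16 were above 0, or 80%, against 59.0% of all genes, with Gars, the brightest, at -0.04. With the block 1 of the 20 rose, Nars, at 0.60 (adjusted p = 0.0313, limma). In the eIF2 list the block gave 1 rise, Eif2ak4, which encodes the amino acid sensor kinase GCN2, at 0.66 (adjusted p = 0.0328, limma), and its brightest gene, Gcn1, had a change of -0.14. Hspa5, the ER chaperone BiP and the usual read-out of ER stress, read 7.06, 7.01 and 6.98 on uninduced and 7.18, 6.87 and 6.88 on induced arrays. The groups overlapped and the interval of its change was -0.39 to 0.32. Atf6, which encodes an ER stress sensor and transcription factor, rose with the block by 0.98 (adjusted p = 0.0125, or 0.185 without it, limma), the 1 block call in the ER list. The block also gave 1 rise in the autophagy list, Atg7, the activating enzyme of LC3 lipidation, at 0.69 (adjusted p = 0.035, limma). Among the other transporters 2 rose with the block, the neutral amino acid carriers Slc7a8 at 1.58 (adjusted p = 0.00546) and Slc43a2 at 0.71 (adjusted p = 0.0247). The glutamine carrier Slc38a5, which failed the background flag on 1 induced array, fell with the block, with a change of -2.35 (adjusted p = 0.0239, or 0.365 without it, limma) that was -1.06 with spike-in scaling. Hspe1, a mitochondrial chaperonin, had a change of 0.11, Gabarapl1 of the autophagy list -0.08, and Slc6a6, the taurine transporter, 0.34. The signs of these small changes rest on the scale, since with spike-in scaling Gars, Gcn1, Hspa5 and Gabarapl1 lay above 0, at 1.25, 1.16, 1.26 and 1.21.

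**Figure D5:**
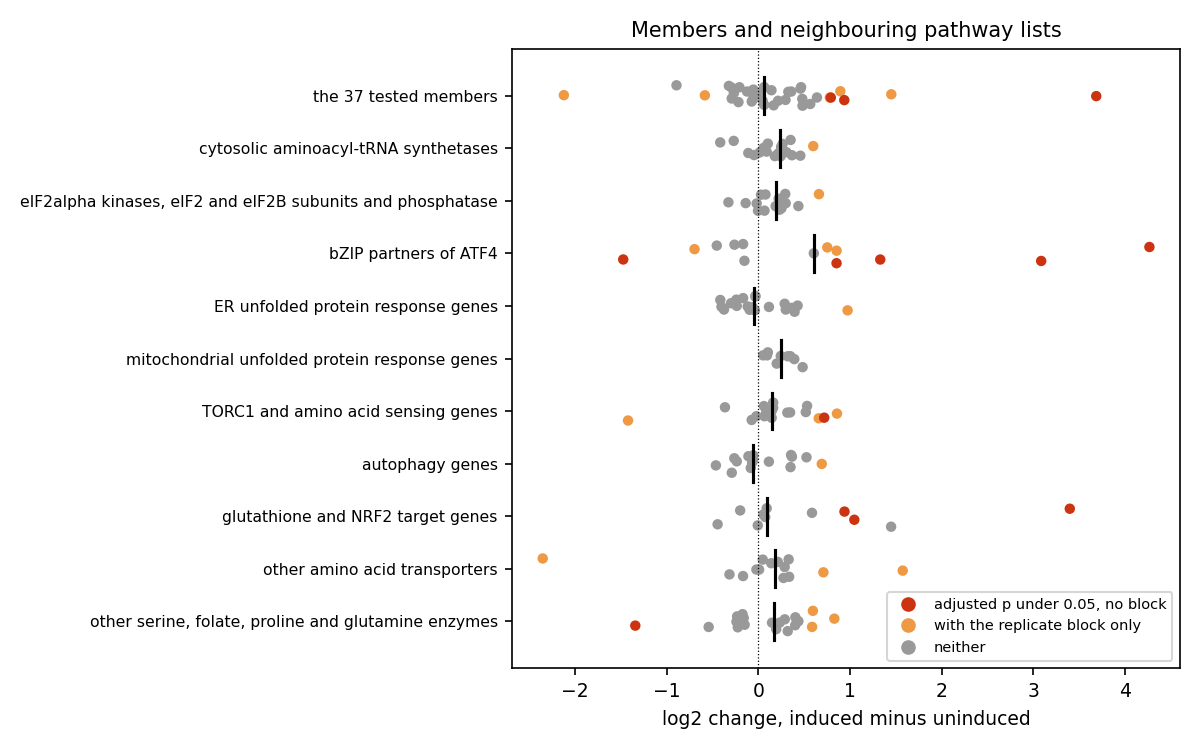
Log2 change, induced minus uninduced, of each tested gene among the 37 and in the 10 further lists, with a bar at the median of each list and colours for genes past the threshold without and with the replicate block. The medians lie between -0.06 and 0.61, and most calls without the block lie among the bZIP partners and glutathione genes and in the top row. With spike-in scaling the values move up with the median of all genes, from 0.09 to 1.38.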

How the data were processed

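Cy3-labelled RNA of each sample was read on its own Agilent 1-colour array. The authors deposited Feature Extraction output with spot intensity on a linear scale (version 10.7.3.1 per the file headers, 10.7.1.1 and limma per the submitters' processing notes), and a table of log2 values of unknown normalization and centring, with column medians of 5.36 to 5.38 on a scale that rises with signal.

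After removal of control and outlier spots (114 to 246 an array), each array's 75th percentile was subtracted from its log2 processed signals and the spots of each probe were averaged. RefSeq accessions gave 1 symbol to 26582 of 55681 probes through a GRCm38.p6 table used for names, several to 0 and none to 29099. A probe was kept if well above background on all 3 arrays of at least 1 group (32855 probes), and of several kept probes the brightest represented the gene. Two-sided tests of induced against uninduced arrays used limma 3.58.1 under R 4.3.3 (lmFit, then eBayes), checked on simulated data, with p-values adjusted by Benjamini-Hochberg over the genes tested and called under 0.05. Every adjusted p in the text is from limma. The p-values measure the spread between arrays that the labels call independent replicates.

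A fold given as "at least" sets the bright group's mean against, per array, a floor: the dimmest signal that still passed the background flag, or the signal of the probe itself where that is higher.

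Same-numbered arrays of the groups deviated together (r = 0.65, 0.45 and 0.43 for numbers 1, 2 and 3, over all genes tested), so the numbers were taken to pair the samples, from these data and not from a statement in the labels. The fit with the number as a block is given where it changes a call. Spike-in scaling used the 4 brightest E1A spike-in probes below saturation by a margin. Normexp correction (offset 50) used the median signals.

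The genes and lists were chosen with earlier results of these data known. Values by array are given for each gene past the threshold with or without the block and the brightest gene of each role, and, in the further lists, the genes past the threshold with or without the block and the brightest are named, some with values by array. Some items of these lists are not reported here. Dppa5a, Nanog, Pou5f1 and Sox2 (pluripotent cells), Tnnt2, Myh6, Nkx2-5 and Actc1 (cardiac muscle), and red cell genes had 0 calls without the block. Of 7 macrophage and granulocyte markers on the array 2 rose and 1 fell. All 8 arrays shared 1 slide and 1 scan, and their number limits the precision.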

Additional observations from a re-analysis of the deposited data

Results flagged for a closer look

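The technical repeat arrays, 1 for each group, were kept out of every test, and they gave some of the largest differences of the set. The labels do not say which replicate they repeat. Induced minus uninduced, the log2 difference on this pair was 4.77 for Vldlr, 2.18 for Slc7a5, 1.70 for Gdf15, 1.52 for Mthfd1l, 1.33 for Mthfd2 and 1.22 for Stc2, all in the direction of the 3 biological pairs. It was -1.39 for Ddit3, against a mean of -0.22 in the comparison, and -1.12 for Slc1a4, against -0.06. On this pair 33 of the 37 genes lay on the same side of 0 as the mean of the 3 biological pairs, 20 lay above the range of those pairs and 5 below it. Arrays titled as technical repeats are not further independent replicates, so a shared sign adds no independent support. The same counts over all genes were not taken, so these show no trait particular to the set. Over all genes the induced technical repeat differed from the 3 induced replicates with an SD of 0.85, 0.87 and 0.67 in log2 signal, and the uninduced one from its replicates with an SD of 0.61, 0.44 and 0.42. With 1 array a group these differences have no test, and groups of 3 were not examined for outlying arrays.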

How the results depend on the processing

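The 3 rises without the block (Vldlr, Mthfd1l, Slc7a5) became 5 with median centring, 1 with no filter on dim probes, 5 or 6 with the technical repeats averaged into number 1 or 2, 0 in the deposited table with columns as named, and 1 to 2 with 1 replicate array left out. Normexp correction kept these 3 and added Phgdh. Scaled to the spike-ins the rises were 2, Vldlr and Gdf15. With the replicate block 6 rose and 2 fell. No gene fell without it, except 1 with the technical repeats averaged into number 1 and 1 with number 2, and 0 fell in each fit that left out an array. The median change of 0.07 was 0.22 with median centring, 1.36 with spike-in scaling, 0.0012 with the mean of kept probes, 0.14, 0.19 and 0.19 with the technical repeats averaged into number 1, into number 2 or added as replicates, and 0.068 to 0.15 with 1 array left out. In the deposited table as named, where 4 of 8 columns tracked an array of the other group, the called genes Atf3, Nfe2l2, Gclc and Srxn1 turned to 0.027, -0.21, -0.13 and -0.12, and with columns as tracked 2 of the 37 rose. The cause of these shifts was not tested. Of all genes called, 65.7% rose without the block, against 76.9% when arrays were centred on the median and 99.4% when scaled to the spike-ins, and all genes called numbered 915 without and 2346 with the block. The slide could not be fitted as a block, with 1 slide and 1 scan. Genes near background, such as Aldh1l2, Cebpe, Batf and Ggt5, are limited by signal over background.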
